A study of Drosophila melanogaster with 6 samples.

Results

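Described here are the peaks at the centromere-side ends of 4 chromosome arms of the fruit fly Drosophila melanogaster, in a chromatin immunoprecipitation experiment read by sequencing (ChIP-seq). A peak is a stretch of the genome where the authors' peak caller found more precipitated DNA than background. The members were chosen by position alone, with the peak's centre above 20700000 on 2L, above 22080000 on 3L, above 20180000 on X, or below 2845000 on 3R (FlyBase release 5). This gave 413 peaks, of 1586 on these 4 arms and 13745 in the whole list. Of the 413 members, 212 lay on 2L, 116 on 3L, 28 on 3R and 57 on X. The remaining 1173 peaks of the same arms are called outer peaks.

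The study has 3 libraries of DNA precipitated with a monoclonal antibody raised in mouse, and 3 of input DNA, the sonicated chromatin before precipitation. All 6 came from wandering third-instar larvae of unknown sex, so the tissues of whole larvae are mixed. The larvae were reared at 25 °C, and crosslinking took 15 min in 1.8% formaldehyde. Every library shares the strain, written Y cn bw sp in the labels, and its genotype, with y[1] and oc[R3.2] on the first chromosome. On the second chromosome it carries Gr22b[1] and Gr22d[1] beside cn[1], then CG33964[R4.2], bw[1] and sp[1]. On the third it has LysC[1] and lab[R4.2], as well as MstProx[1], GstD5[1] and Rh6[1]. The antibody label names tango, a bHLH-PAS protein that pairs with factors such as Single-minded, whereas the series title names TCF, the nuclear effector of Wingless signalling. Which of them was precipitated was not settled here. The single deposited list has no value per library, so read depth and replicate error are unknown, and ChIP cannot be set against input for any peak.

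DNA next to fly centromeres is largely heterochromatin, a compact form of chromatin rich in transposable elements and in sequence repeated elsewhere in the genome. Genes do lie in it and beside it, some of them in families of near-identical copies. The base of arm 2L is known for the histone gene complex, a tandem array in which a unit of the genes for the linker histone and the core histones is repeated many times. Reads from repeated DNA match several places, and how the authors placed such reads is not given in the sources used here. No genome of release 5 was used, so no sequence or gene is given under any peak.

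The members were dense on 2L and 3L, less so on X, and not on 3R taken as a whole. Measured from the limit to the outermost peak, there were 91.7 members per Mb on 2L (2.31 Mb), 47.1 on 3L (2.46 Mb), 10.1 on 3R (2.78 Mb) and 25.4 on X (2.24 Mb). Outer peaks of the same arms had 14.6 per Mb on 2L, 13.2 on 3L, 11.6 on 3R and 14.4 on X. The ratio of proximal to outer density was 6.29 on 2L (95% exact interval 5.25 to 7.52), 3.56 on 3L (2.85 to 4.43), 0.869 on 3R (0.567 to 1.28) and 1.77 on X (1.31 to 2.36). Without a block of 115 peaks described below, the ratio on 2L was 3.04 (2.40 to 3.84). Over the 4 arms together it was 3.16 (2.82 to 3.54), and 1.43 (0.99 to 2.02) when only peaks that reach the median score of the list were counted. These intervals cover counting error only and treat neighbouring peaks as independent, which they are not. Because the limits were drawn by position with the counts of this list known, the density describes the regions and is no test of them. In all, the members covered 339 kb, or 3.46% of their 9.80 Mb, and outer peaks covered 1.55% of 88.0 Mb.

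Inside each region the members were spread in different ways. On 2L, 2 of 24 bins of 100 kb held 78 and 44 members, the median bin held 2.00, and 2 bins were empty. On 3L the members filled up toward the centromere, with 5, 15, 28, 35 and 33 in successive steps of 500 kb from the limit, and no 100 kb bin held more than 11. On X, 22 of the 57 members lay between 1.0 and 1.5 Mb from the limit, 13 of them in a single 100 kb bin. On 3R more members also lay toward the centromere, with 2, 3, 2, 5, 11 and 5 in successive steps of 500 kb. The last of these steps is cut short by the outermost peak. Of the 28 bins of 100 kb on 3R, 13 (46.4%) were empty, close to the 47.8% of empty bins on outer 3R. Empty bins made up 8.33% on proximal 2L, 20.0% on 3L and 26.1% on X, against 40.6 to 43.5% on the outer parts of these 3 arms. The longest stretch between neighbouring members ran from 219 kb on 2L to 404 kb on 3R.

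**Figure D1:**
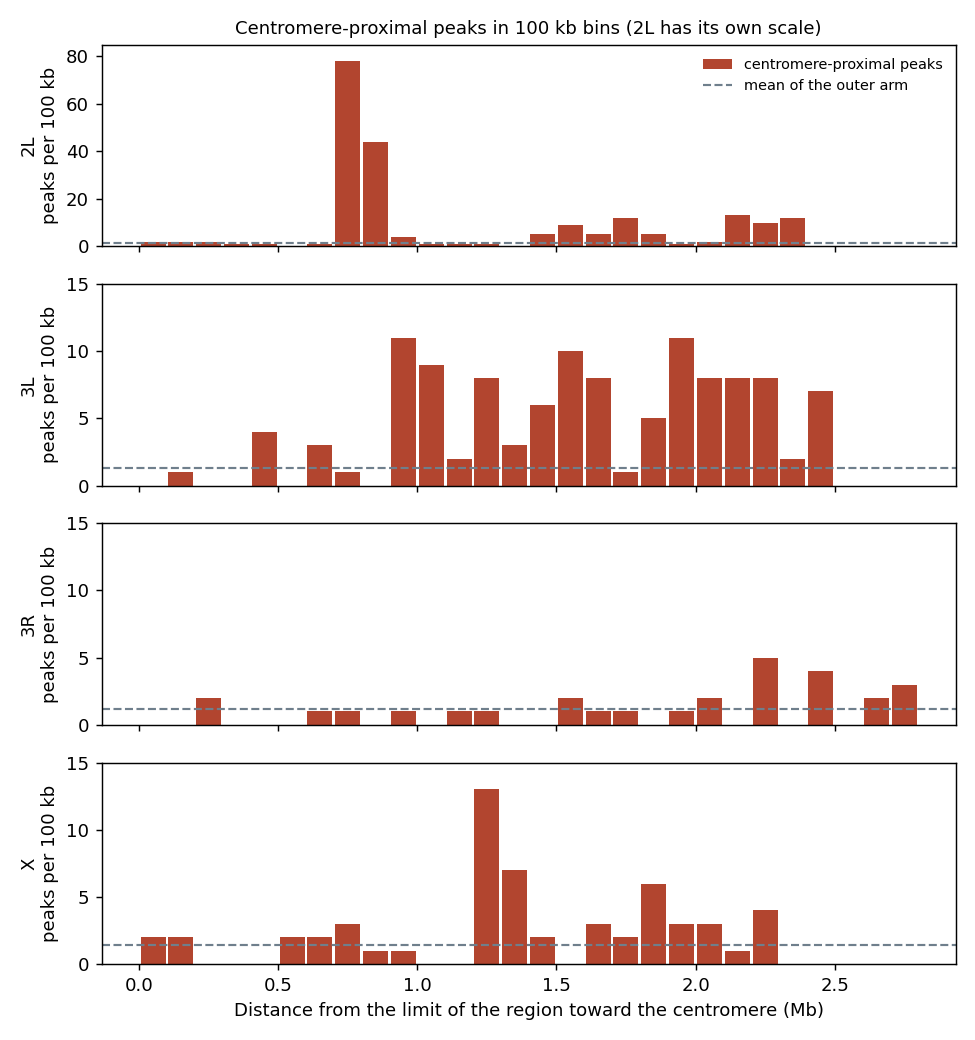
Number of centromere-proximal peaks (bars) in bins of 100 kb, by distance from the limit of the region toward the centromere in Mb, for 2L, 3L, 3R and X, with the mean of the outer arm per 100 kb as a dashed line. Bars of 78 and 44 peaks stand out on 2L, and members are spread over many bins on 3L. No bin of 3R holds more than 5 of its 28 members.

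The nearest peaks on either side of each limit were well apart, so small shifts of the limits move no peak. On 2L the first member lay 76.2 kb inside (20775835 to 20776505, 671 bp, score 47.4) and the nearest outer peak 264 kb outside (20435879 to 20436106, 228 bp, score 13.4). On 3L they lay 180 kb inside (22260308 to 22260586, 279 bp, 25.6) and 125 kb outside (21954468 to 21954677, 210 bp, 16.1). On 3R they lay 280 kb inside (2564674 to 2564970, 297 bp, 17.6) and 71.2 kb outside (2915758 to 2916633, 876 bp, 109). On X they lay 68.7 kb inside (20248506 to 20248877, 372 bp, 18.2) and 219 kb outside (19961136 to 19961390, 255 bp, 15.0). The second peak inside scored 68.3 on 2L (20787158 to 20787599), 8.07 on 3L (22572376 to 22572701), 20.0 on 3R (2563636 to 2564595) and 11.4 on X (20249327 to 20249699). The second peak outside scored 27.4 on 2L (20412360 to 20412843), 17.0 on 3L (21951995 to 21952215), 43.2 on 3R (3262036 to 3262541) and 31.1 on X (19930546 to 19930856). No peak crossed a limit.

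The fullest place among the members was a single block of 115 peaks on 2L, from 21416412 to 21543141. The block was defined, after its peaks had been seen, as an unbroken series with gaps of at most 2 kb. It held 54.2% of the members of 2L and 27.8% of all members, in 127 kb. Its peaks covered 83.7 kb or 66.1% of the block. Gaps inside it ran from 50 to 1803 bp, with a median of 296 bp, while the nearest peaks lay 10.3 kb before and 17.7 kb after it. Its peaks were modest in score, from 7.47 to 41.56 with a median of 18, and 1 of them reached 40. They had a median width of 566 bp, with quartiles at 381 and 812.5 bp, and the widest, at 21442407 to 21448004, spanned 5598 bp. The next fullest such block on these 4 arms was an outer group of 23 peaks on 3L (128 to 19804), followed by 22 members at the very end of 2L.

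Peaks of the block tended to recur at a spacing of about 5 kb. Peak coverage, scored as covered or not covered at each base, was correlated with itself after shifts of 2 to 21 kb. The correlation was highest at a shift of 5040 bp (r = 0.30 across bases of this 1 block, which are not independent). Further maxima were sought only close to multiples of this shift, and lay at 10090 bp (0.25), 15140 bp (0.15) and 20180 bp (0.12). More than 500 bp away from these multiples the correlation reached 0.12, the same as at 20180 bp. At a shift of 5040 bp, 76.0% of covered bases met another covered base, where the block's mean coverage was 66.1%. The low-coordinate part of the block up to its midpoint alone had its maximum at 5050 bp (r = 0.32), and the part past the midpoint at 5040 bp (r = 0.26). These parts hold different peaks of the same list. This spacing was noticed in the list and is given as a description, with no test.

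**Figure D2:**
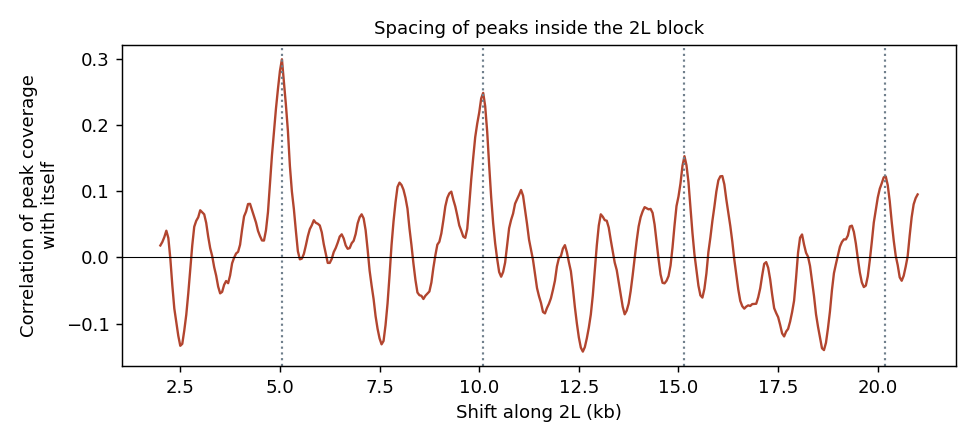
Correlation of peak coverage with itself (vertical axis, no unit) inside the 115-peak block of 2L, by shift along the arm in kb, with dotted lines at the 4 maxima nearest to the multiples of the strongest shift. The curve peaks at 5040 bp with r = 0.30 and again at 10090, 15140 and 20180 bp.

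The block is 25.1 such units long, and its peaks fell at like places in many of them. Counted from the first base of the block, the stretch from 1512 to 2016 bp of the unit was covered over 86.0% of its bases, the highest of 10 equal parts. It was covered over more than 75% in 18 of the 25 complete units and over less than 25% in 0 of them. The stretch from 4032 to 4536 bp was covered over 39.0%, the lowest. It was covered over less than 25% in 14 of the 25 units, but over more than 75% in 6 of them. The remaining parts lay between 53.9 and 75.6%. Coverage of single units ran from 46.6 to 95.6%, with a median of 64.2%. Peaks joined across much of a unit near the low-coordinate end of the block, in the units around the 5598 bp peak. They stood apart with clear gaps in some of the middle units, while others were largely covered.

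**Figure D3:**
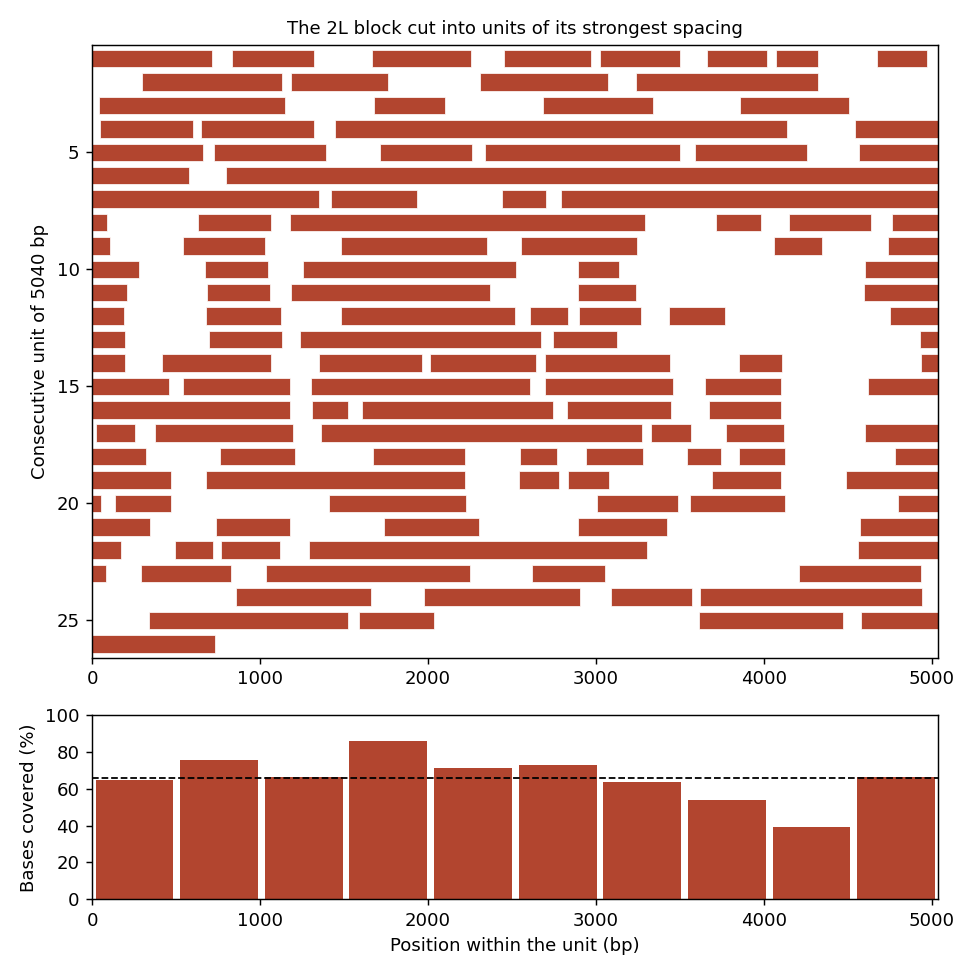
Peaks of the 2L block (bars) cut into consecutive units of 5040 bp from top to bottom, by position within the unit in bp, with the percentage of bases covered in each of 10 equal parts below and the block mean of 66.1% as a dashed line. The part from 1512 to 2016 bp is the most covered (86.0%), and the part from 4032 to 4536 bp is the least covered (39.0%).

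As background on arm 2L, the RefSeq gene table for release 6 lists 3508 genes there. Near their end it has an unbroken row of 139 genes between nrv3 and Lamp1. The row holds 111 histone genes of 5 families, with 23 copies of His1, which encodes the linker histone, 20 of His2A, 23 of His2B, 23 of His3 and 22 of His4, whose products form the nucleosome core. It also holds 8 histone pseudogenes and 20 copies of a small noncoding RNA gene. Another 103 genes of 2L follow it toward the centromere. The table belongs to another genome release than the peaks, so it gives the order of genes and not their place under the peaks. Whether the block of 115 peaks lies on this row was not determined.

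The other large group of members stood at the last peaks of 2L. From 22984032 to 23010856, 22 peaks covered 78.6% of 26.8 kb. Their scores ran from 11.91 to 56.26 with a median of 30.46, and their median width was 640.5 bp. The widest, 5360 bp, lay at 22988792 to 22994151 and had the highest score of the group. With the 115-peak block, this group held 137 of the 212 members of 2L (64.6%). Elsewhere the series were shorter. On 3L, 7 peaks covered 80.4% of the 14.5 kb from 24005581 to 24020067, with scores of 8.94 to 62.01. Another 7, from 24091785 to 24095459, had a median width of 233 bp and scores of 7.24 to 13.61. On X the longest series had 6 peaks (22022401 to 22028565) and on 3R 4 peaks (579580 to 583129).

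Adjacent members often stood almost side by side. A run is counted here as peaks of which each lies at most 400 bp from the next. The 413 members fell into 239 places, 147 single peaks and 92 runs, and 266 members (64.4%, 95% Wilson interval 59.7 to 68.9%) were in runs. Among outer peaks 499 of 1173 (42.5%, 39.7 to 45.4%) were in runs. The gap inside runs was 172 bp in the median and never under 50 bp, and 55 of the 174 gaps were at most 100 bp. Of the 92 runs 56 had 2 peaks and 24 had 4 or more, 13 of which were in the 115-peak block.

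The longest run had 10 peaks, at 21416412 to 21423210 on 2L, with scores of 11.3 to 35.1, and it opens the block. A run of 8 at 21436078 to 21448586 was also in the block, with scores of 16 to 41.6. A run of 6 at 22988792 to 23000838 was in the group at the end of 2L, with scores of 20.0 to 56.3. Several runs of 5 peaks tie behind them and are not described singly. The longest member runs were 5 peaks on 3L (24092594 to 24094612), 3 on 3R and 3 on X. Outer peaks had no run above 6.

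The share of peaks in runs was higher in the proximal region of all 4 arms. It was 73.6% on proximal 2L, against 49.0% on outer 2L. On 3L it was 56.0% in the proximal region, against 43.8% in the outer arm. On 3R it was 46.4%, against 41% in the outer arm, and on X it was 56.1%, against 36% in the outer arm. The mean difference was 15.6 percentage points (exact two-sided sign-flip permutation test over the 4 arms, p = 0.125, the smallest that 4 arms allow). No design of 4 arms can pass 0.05. Runs are counted from peak positions, which the rule also used, so this p is a description and no test of the regions. The test counts arms, not peaks, and the intervals over peaks cover counting error only, treat clustered peaks as independent and test no difference. Denser peaks have more neighbours, and the density given above was itself higher on 2L, 3L and X. Its part in this difference was not tested. Without the 115-peak block the share on proximal 2L was 58.8%, and without the group of 22 as well it was 48.0%, below the 49.0% of the outer arm.

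**Figure D4:**
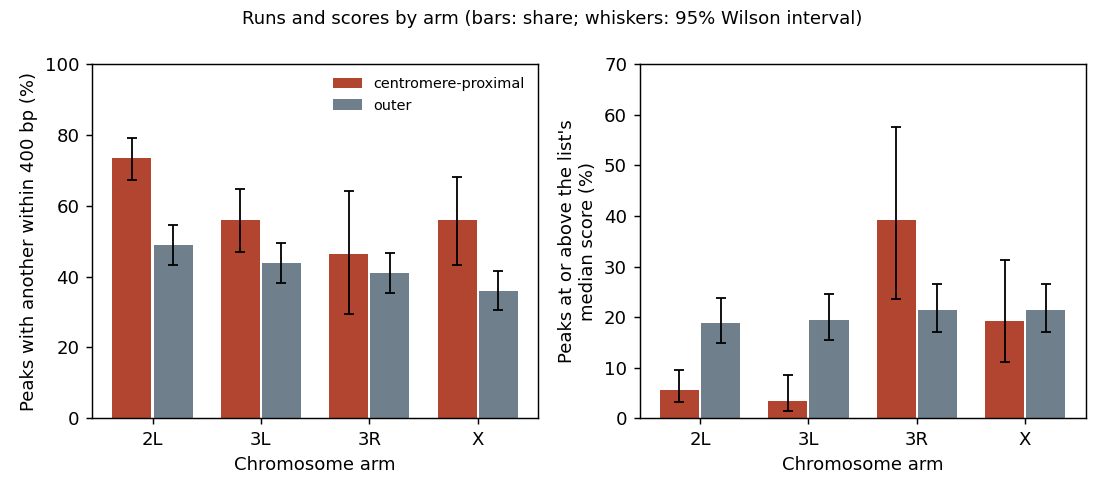
Percentage of peaks with another peak within 400 bp (left) and percentage of peaks that reach the whole list's median score (right), for centromere-proximal and outer peaks of each arm, with 95% Wilson intervals as whiskers. The share in runs is higher for proximal peaks on all 4 arms, and the share of higher-scoring peaks is lower on 2L, 3L and X and higher on 3R.

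Single members were about as wide as outer peaks. The median width was 522.5 bp on proximal 2L and 482.5 bp on outer 2L. It was 384.5 bp on proximal 3L and 462.5 bp on outer 3L, 511.5 bp on proximal 3R and 462.5 bp on outer 3R, and 506 bp on proximal X and 464 bp on outer X. The mean difference was 0.03 on the log2 scale, higher on 3 of 4 arms and lower on 3L (exact two-sided sign-flip permutation test over the 4 arms, p = 0.875). After runs had been merged into regions the proximal ones were wider on all 4 arms, by 0.45 on the log2 scale (same exact test, p = 0.125). Merging joins the peaks of runs, which made up a larger share of proximal peaks, so this p is no separate test. Merged regions had a median of 957.5 bp on proximal 2L, against 562 bp on outer 2L, and of 606 bp on proximal 3L, against 571 bp on outer 3L. On 3R the median was 649 bp in the proximal part, against 507.5 bp in the outer arm, and on X it was 720 bp in the proximal part, against 477 bp in the outer arm.

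Peaks of at least 1 kb made up 18.9% of proximal and 17.9% of outer peaks on 2L, and 7.76% of proximal and 16.8% of outer peaks on 3L. They made up 17.9% of proximal and 15.2% of outer peaks on 3R, and 22.8% of proximal and 18.3% of outer peaks on X. The mean difference in this share was -0.221 percentage points (exact permutation over the 4 arms, p = 1.00). The sign of this difference, and of those in median width and score, turned under several of the other settings tried.

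Scores are the authors' own values, of unknown scale, and can be compared only within this list. Scores under 40 were held by 356 of 413 members (86.2%) and by 836 of 1173 outer peaks (71.3%), so weak peaks made up most of both. The median score was 19.5 on proximal 2L, against 18.8 on outer 2L. On 3L it was 17.1 in the proximal region, against 20.4 in the outer arm, and on X it was 17.9 in the proximal region, against 24.9 in the outer arm. On 3R it was 28.4 in the proximal region, against 21 in the outer arm. The mean difference was -0.555, with 2 arms higher and 2 lower (exact two-sided sign-flip permutation over the 4 arms, p = 1.00).

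The share of stronger peaks varied among the arms. The median score of the whole list, 57.7, was reached by 12 of 212 members on 2L (5.66%, 95% Wilson interval 3.27 to 9.63%) and by 18.9% of outer peaks there (14.9 to 23.7%). It was reached by 4 of 116 members on 3L (3.45%, 1.35 to 8.53%) and by 19.5% of outer peaks (15.4 to 24.5%). On 3R it was reached by 11 of 28 members (39.3%, 23.6 to 57.6%) and by 21.4% of outer peaks (17.1 to 26.5%). On X it was reached by 11 of 57 members (19.3%, 11.1 to 31.3%) and by 21.5% of outer peaks (17.1 to 26.5%). The proximal share was thus lower on 2L, 3L and X and higher on 3R, and these differences were not tested. Of the 115 peaks of the 2L block 0 reached the median score. Were these peaks independent draws, a count of 0 would allow up to 3 of 115 (2.61%), and the Wilson interval extends to 3.23%. Neighbouring peaks of the block are not independent. Without the block the share on proximal 2L was 12.4% (7.22 to 20.4%), lower than the 18.9% of outer 2L. The block was left out after its scores had been seen. All these intervals treat neighbouring peaks as independent and test no difference.

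Scores of 100 and more were held by 19 members, 4 on 2L, 2 on 3L, 7 on 3R and 6 on X. Over the 4 arms they were 4.60% of members and 10.1% of outer peaks. The share was 1.89% on proximal 2L, against 9.27% on outer 2L, and 1.72% on proximal 3L, against 9.93% on outer 3L. On X it was 10.5% in the proximal region, against 11.1% in the outer arm. On 3R alone it was higher in the proximal region, at 25.0% of 28 members (12.7 to 43.4%), against 10.0% (7.05 to 14.0%) in the outer arm. The 7 members on 3R include the side-by-side couples described below, whose peaks the interval counts as independent. The top 1% of the list, from a score of 262, held 11 of the 413 members and 36 of the 1173 outer peaks of these arms. These are similar shares, so such peaks are not particular to the proximal regions. None of the 11 lay on 3L, where the highest members were at 22736778 to 22737805 (1028 bp, score 112), 23730021 to 23730979 (959 bp, 106) and 24005581 to 24010929 (5349 bp, 62.0).

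On 3R the strongest member was also the strongest of all 413, at 96417 to 102474, with 6058 bp and a score of 591. It was followed by the peak at 1272352 to 1278235 (5884 bp, 533) and the one at 102531 to 103026 (496 bp, 460). The fourth in the top 1% was at 1271631 to 1272168 (538 bp, 407). On 2L the strongest was at 21691782 to 21697697 (5916 bp, 546), then a narrow one at 20864627 to 20865225 (599 bp, 478), then one at 21697873 to 21698398 (526 bp, 371). On X it was the peak at 22389537 to 22391687 (2151 bp, 521), then 22310759 to 22315126 (4368 bp, 478), 22388889 to 22389415 (527 bp, 332) and 21152258 to 21152977 (720 bp, 288).

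Of these 11 members, 8 stood in 4 couples of a wide and a narrow peak side by side. On 2L the couple stood 175 bp apart and measured 6617 bp from end to end. On 3R the couple that starts at 96417 stood 56 bp apart and measured 6610 bp, and the one that starts at 1271631 stood 183 bp apart and measured 6605 bp. The narrow peak lay on the high-coordinate side in the first 2 of these 3 couples and on the low-coordinate side in the third. The 3 total lengths differed by at most 12 bp, and outer couples on 3R and X measured 6619 and 6631 bp. The couple on X was shorter, 2799 bp with a gap of 121 bp, and outer couples on 2L and X measured 2586 to 3158 bp. Couples were picked by a score of at least 400 for the wide peak, after the scores had been seen.

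The other 3 members of the top 1% stood without a neighbour within 400 bp, the narrow peaks of 2L and X and the 4368 bp peak of X. Both the narrow 2L peak and the 4368 bp peak of X had a score of 478, at rank 54 of 13745.

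**Figure D5:**
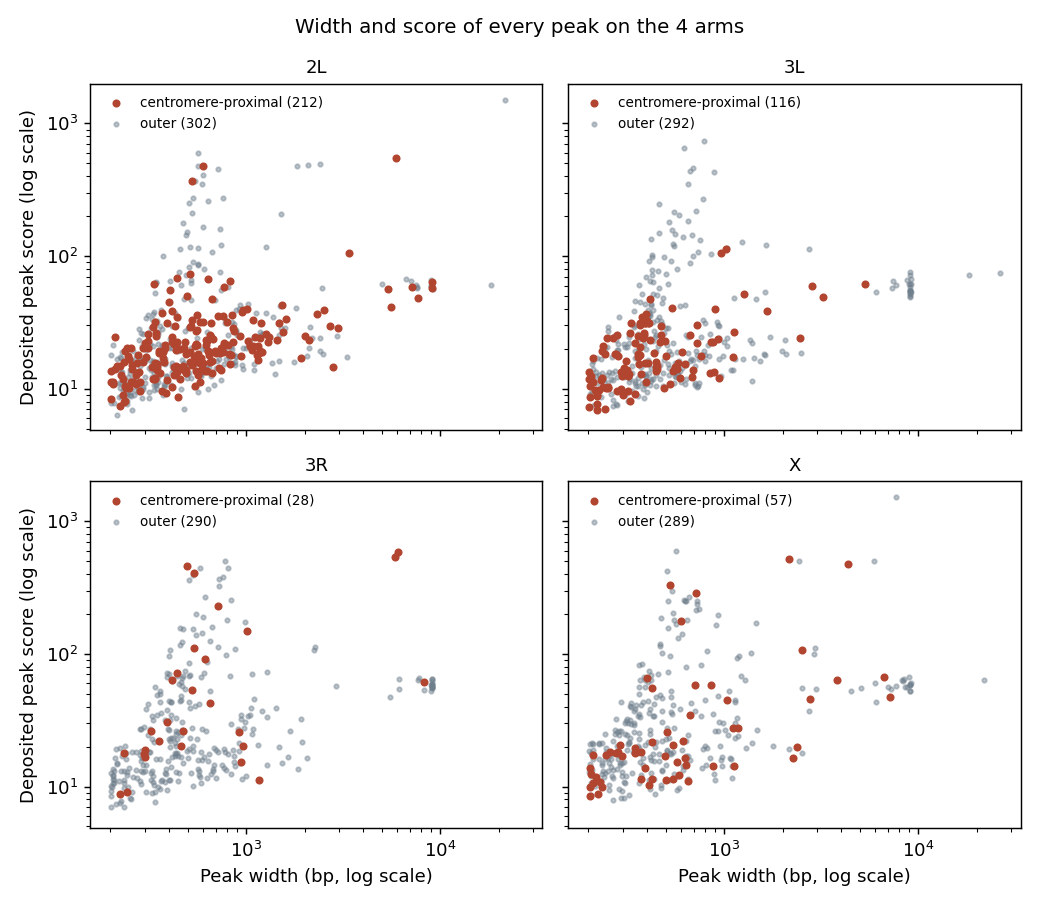
Deposited score against width in bp (both on log scales) for every centromere-proximal peak and every outer peak, in a panel for each arm. Most of the 413 members lie among the weak outer peaks, a few on 2L, 3R and X lie above a score of 262, and wide members of 4 kb and more lie mostly between 40 and 80.

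Peaks of at least 4 kb made up a smaller share of the members than of the outer peaks. Per Mb they were not rarer, with 14 in 9.80 Mb of the proximal parts and 81 in 88.0 Mb of the outer parts. The share also depends on the number of narrower peaks, and members were dense on 2L and 3L. They numbered 14 of 413 members (3.39%, 95% Wilson interval 2.03 to 5.61%) and 81 of 1173 outer peaks (6.91%, 5.59 to 8.5%), and covered 27.6% of all bases under members and 53.6% under outer peaks. The share was lower on 3 of the 4 arms, with a mean difference of -1.89 percentage points (exact two-sided sign-flip permutation over the 4 arms, p = 0.5). Scores of 40 to 80 were held by 10 of the 14 and by 77 of the 81. Several of the 14 had widths that recurred elsewhere in the list.

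The widest members were both on 2L, at 21981748 to 21990817 (9070 bp, score 57.2) and 22498420 to 22507457 (9038 bp, 63.5). The list holds 40 other peaks within 50 bp of the first width and 27 within 50 bp of the second, sets that overlap, with scores of 49.1 to 78.3 and 49.1 to 75.7. On 3R the widest member was at 192540 to 200837 (8298 bp, 61.0), with 5 other peaks within 50 bp of its width and scores of 48.3 to 63.0. On X it was at 22398206 to 22405366 (7161 bp, 47.6), with 2 such peaks, of which 1 is the member of 7179 bp at 21563023 to 21570201 on 2L (score 58.1).

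A pair of widths, 5349 and 5360 bp, had no other peak of the list within 50 bp, and both were members near the centromere-side ends of their arms. They were the 3L peak at 24005581 to 24010929 (5349 bp, 62.0), the widest of that arm's members, and the 2L peak at 22988792 to 22994151 (5360 bp, 56.3). Each stood in a run of further peaks.

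Among members, wider peaks had higher scores, as in the outer arms. Width and score had a Spearman's rank correlation of 0.55 over the 413 members, against 0.49 over the 1173 outer peaks. By arm it was 0.53 on proximal 2L, 0.54 on 3L, 0.52 on 3R and 0.61 on X. Pearson's r was 0.35 over members on the deposited scales and 0.53 on log scales. These describe peaks of 1 list whose width and score come from the same peak calling, so no p is given.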

How the data were processed

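All 6 libraries share a single list, in which the authors deposited the first base, last base and score of each peak. MACS and FlyBase release 5 are named in it, per the file headers. The submitters' processing notes add MACS2, BWA, the BDGP5 build and CASAVA (1.7.0.2, also 1.7.0.3). How replicates and reads matching several places were treated, and the threshold, are not given in these sources. Depth is unknown.

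The tools were scipy 1.17.1, pandas 2.3.3, numpy 2.4.6 and Python 3.11.15. Width is last minus first base plus 1, and a gap is the number of bases between neighbouring peaks. Proximal and outer peaks were compared within each arm by medians and shares, with an exact sign-flip test over the 4 arms. Wilson and exact 95% intervals cover counting error only and treat peaks as independent. Named peaks are the 3 highest-scoring and the widest member of each arm, the 2 peaks on either side of each limit, the largest runs, and members in the top 1% of the list. Others named were picked after their values were seen. On simulated peaks the spacing measure found the planted spacing within 100 bp in 20 of 20 sets. Each of these sets had 24 peaks, fewer than the block, and the shifts tried ended before the first multiple. No set without a spacing was run, so false finds were not tested. The width comparison found a planted change of 1 (log2) within 0.3 in 20 of 20 sets. Its simulated peaks were placed independently, unlike those of the list, and changes as small as the observed 0.03 were not tried. The members, limits and lists were chosen with earlier results of these data known. Gene names come from RefSeq's release 6 table.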

Additional observations from a re-analysis of the deposited data

How the results depend on the processing

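No paired analysis was possible because single libraries have no column in the list, so leaving out a replicate could not be tried either. In the mean over arms, the share in runs stayed higher in the proximal regions under every alternative run, by 5.93 to 30.6 percentage points. It was higher on 3 or 4 of 4 arms, and on all 3 when an arm was left out. The difference was -8.83 on 3R against the outer 3 Mb next to the limit. It was -1.83 on X with gaps of at most 100 bp and -1.01 on 2L without both blocks. Runs are counted from peak positions, which the rule also used, so this describes the regions and is no test of them. The other differences were small and turned with the setting, in a design that cannot pass its test. Median width, on the log2 scale, was -0.05 for peaks of at least 400 bp, -0.01 without 3R, -0.0021 without X, -0.03 without the 115-peak block and -0.06 without both blocks of 2L. Median score was 5.29 at or above the list median, 2.28 for peaks of at least 400 bp, 0.00750 and 1.80 with limits 500 kb away from and toward the centromere, 0.352 without 3L, 1.6 without X, 0.746 without the block and 0.239 without both blocks. The share of peaks of at least 1 kb was 16.4 percentage points higher at or above the list median, 6.31 with runs merged, 0.897 with limits toward the centromere and 2.71 without 3L. At or above the list median the proximal parts kept only 12 peaks on 2L, 4 on 3L, 11 on 3R and 11 on X. There the wide share differed by 46.9 points on 3L and by -1.75 on 2L. The 30.6 points for runs at this setting likewise include 46.5 on 3L. The density ratio over the 4 arms, 3.16 as deposited, was 2.50 with runs merged, 2.23 by covered bases, 1.43 at or above the list median and 2.31 without the block. The 92 runs became 47 with gaps of at most 100 bp, 77 with 1000 bp and 69 with 5000 bp. The rank correlation of width and score was 0.44 without the widest and narrowest 5% of members, and Pearson's r 0.53 on log scales. Leaving out the blocks was added after seeing the data. Beyond the smaller sets of peaks the causes were not tested.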
